A study of Mus musculus with 18 samples.

Results

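The genes that break haem down, and genes whose products sense or carry it, were followed in the hippocampus of Atrx-mutant mice with and without 5-ALA. The 9 genes were chosen by name: Hmox1, Hmox2, Blvra, Blvrb, Bach1, Nr1d1, Nr1d2, Hebp1 and Pgrmc1. The platform's annotation gives them 10 probes, with 2 for Nr1d2, and all 10 were among the 22538 tested probes, which stand for 15917 named genes. Every probe of the 9 genes exceeded the blank spots on each of the 18 arrays.

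Each of 18 mice had given 1 single-colour array. The labels name 4 AtrxΔE2 mice treated with 5-ALA, 7 AtrxΔE2 mice without treatment and 7 wild-type (WT) mice. 5-ALA, or 5-aminolevulinic acid, is the precursor that cells turn into haem; mice took 3 mg/kg orally once a day between postnatal days 30 and 90. All treated mice carried the AtrxΔE2 allele, so 5-ALA in WT mice was not analysed here. Atrx is an X-linked chromatin remodeller gene, and the labels describe its mutant allele by the name ΔE2 only. They give no vehicle, sex or age at sampling. Array identifiers form 2 series: series A holds 3 AtrxΔE2 and 3 WT arrays, and series B holds the 4 5-ALA arrays, 4 AtrxΔE2 arrays and 4 WT arrays. Every comparison was made within a series, and the p-values measure the spread between single mice, taken as independent. Deviations from the group mean correlated at 0.454 between 5-ALA arrays 1 and 2, and at 0.425 between 5-ALA arrays 3 and 4. Over the 6 pairs of consecutive arrays in series B these correlations ran from -0.201 to 0.454, which the main p-values do not take into account.

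The arrays differed in ways that the groups do not describe. Within series B the blank spots averaged 61.9 to 63.2 intensity units on 5-ALA arrays, 59.3 to 61.6 on AtrxΔE2 arrays and 55.3 to 56.6 on WT arrays, and each run of consecutive identifiers held 1 group, so array order and group cannot be told apart. The 9 tested markers of hippocampal neurons were detected in every group. Genes of the choroid plexus summed to between 29500 and 42090 of the authors' intensity units in series B, against 915.4 to 1138 in series A. Those of oligodendrocytes summed to between 10210 and 17020 in series B, against 3129 to 6880 in series A. Tissue and array series cannot be told apart in these gaps. Within series B, 5 of 8 tested choroid plexus genes were higher in AtrxΔE2 than in WT at a limma adjusted p under 0.05, beside 1.22% of all probes. Atrx stood at -0.29 (SE 0.0837) on the log2 scale in AtrxΔE2 against WT mice of series B and at -0.52 (SE 0.0895) in series A, at limma adjusted p of 0.0927 and 0.179. Where its probe lies relative to the altered part of the gene is not known here.

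Haem is opened by a haem oxygenase into biliverdin, carbon monoxide and iron, and biliverdin is then reduced to bilirubin. Hmox1 encodes the inducible oxygenase, which in brain rises strongly in glia under oxidative stress, and Hmox2 the constitutive one, which neurons express. Free haem also acts as a signal: it binds the repressor BACH1 and removes it from the genes it silences, Hmox1 among them, and it is the ligand of the clock repressors REV-ERBα and REV-ERBβ, made by Nr1d1 and Nr1d2. Hebp1 encodes a small haem-binding protein, and Pgrmc1 a membrane haem protein that assists cytochromes P450 and binds ferrochelatase, the last enzyme of haem synthesis.

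The promoters of these genes were searched for the elements that those regulators read. Windows of 300 bases around a gene's start (250 before it and 50 after it) were taken from RefSeq on GRCm38.p6 for 8 of the 9 genes, Hmox1 being the other one, and both strands were read. The 8 genes had 11 windows. A gene is named when any of its windows matched, while the percentages count single windows, so the 2 are unlike measures. The core of the antioxidant response element, TGACNNNGC, which BACH1 and the activator NRF2 share, stood in the windows of Blvra, Nr1d2 and Pgrmc1, and in 12.4% of all 32851 windows. The half-site of the REV-ERB receptors, AGGTCA, stood in that of Nr1d2 and in 16.3% of all windows. CACGTG, the E-box bound by CLOCK and BMAL1, stood in that of Hebp1 and in 7.15% of all windows. The sequences below show 1 match for each of these 4 genes, and 1 each for Srxn1 and Per1, which were picked because they changed after 5-ALA. Among 12 listed BACH1 and NRF2 targets with windows, 7 matched TGACNNNGC: Srxn1, G6pdx, Gclm, Mafg, Me1, Prdx1 and Txnrd1. Among 12 listed clock genes with windows, 4 matched CACGTG: Per1, Bhlhe41, Ciart and Tef. Of these matching genes, only Srxn1 and Per1 were called against AtrxΔE2, at a limma adjusted p under 0.05. Capitals mark the match, and positions count from the start site.
Blvra, TGACNNNGC on the opposite strand at -49, chr2:127070588-127070636 (+): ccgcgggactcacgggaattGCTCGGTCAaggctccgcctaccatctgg
Pgrmc1, TGACNNNGC at -192, chrX:36597981-36598029 (+): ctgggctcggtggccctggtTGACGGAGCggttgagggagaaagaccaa
Nr1d2, AGGTCA at -77, chr14:18239158-18239203 (-): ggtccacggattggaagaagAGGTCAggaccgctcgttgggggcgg
Hebp1, CACGTG at -58, chr6:135168248-135168293 (-): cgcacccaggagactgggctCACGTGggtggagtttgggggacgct
Srxn1, TGACNNNGC on the opposite strand at 29, chr2:152105532-152105560 (+): gccacggcgggcagtgggcaGCTAGGTCA
Per1, CACGTG at -166, chr11:69098763-69098808 (+): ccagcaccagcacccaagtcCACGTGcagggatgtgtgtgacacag
The Srxn1 match ends in the letters AGGTCA, so there the 2 motifs overlap. Each match is a description of letters in a window.

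The comparison of treated with untreated AtrxΔE2 mice asked how the haem-handling genes stand once their pathway's precursor has been supplied. Hmox1 was lower after 5-ALA, and it was the single gene of the 9 that passed the test. Values below are log2 background-corrected intensities, on which a difference of 1 is a doubling. Hmox1 measured 6.89, 6.97, 7.05 and 7.07 on the 5-ALA arrays, against 7.29, 7.31, 7.22 and 7.27 on the AtrxΔE2 arrays and 7.30, 7.19, 7.32 and 7.26 on the WT arrays of series B. All 4 treated mice lay below all 8 untreated ones. The difference was -0.28 against AtrxΔE2 (SE 0.049, 95% confidence interval -0.38 to -0.17, limma adjusted p 0.00513), and -0.27 against WT (SE 0.049, limma adjusted p 0.00466). These comparisons share the 5-ALA arrays. On each of them alone the two-sided exact permutation p was 0.0286, the smallest that 4 against 4 arrays allow. In whole hippocampus, fewer cells of a type and less RNA per cell cannot be told apart.

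The deposited normalized values, which are linear and have a median of 25 on every array, also placed all 4 treated mice below the 8 untreated ones. There Hmox1 read 32.9, 34.8, 38.7 and 39.6 on the 5-ALA arrays, against 51.2, 52.5, 44.6 and 49.3 on the AtrxΔE2 arrays and 52.4, 48.2, 53.4 and 53 on the WT arrays. Groups averaged 36.5 ± 3.18 with 5-ALA, 49.4 ± 3.46 in AtrxΔE2 and 51.8 ± 2.4 in WT (SD, n = 4 each). The ratio of means was 0.739 to AtrxΔE2 and 0.705 to WT. On this scale the median tested probe stood at -0.103 (log2) against WT, and Hmox1 at -0.50. The lowest 2 treated arrays are numbered 1 and 2: without them the Hmox1 difference against AtrxΔE2 was -0.21 (limma adjusted p 0.0673) and against WT -0.21 (0.0665), so both calls ended. With consecutive arrays of a group averaged in pairs, the difference against AtrxΔE2 stood at -0.28 with a limma adjusted p of 0.277, and 0 of all probes were called.

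In the comparison with AtrxΔE2, 6.75% of all tested probes were called, 3.26% lower and 3.49% higher, and at 5.79% every treated array lay below every AtrxΔE2 array, so 1 of 9 genes lower is close to what the arrays show at large. At an unadjusted p under 0.05 stood 3 of the 9 genes (Hmox1, Bach1 and Hebp1), against 22.3% of all tested probes. Hmox1 ranked 198 by size of its test statistic among all tested probes. The median difference of the 9 genes was -0.06, with 4 above 0 and 5 below, against -0.000409 over all tested probes.

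**Figure D1:**
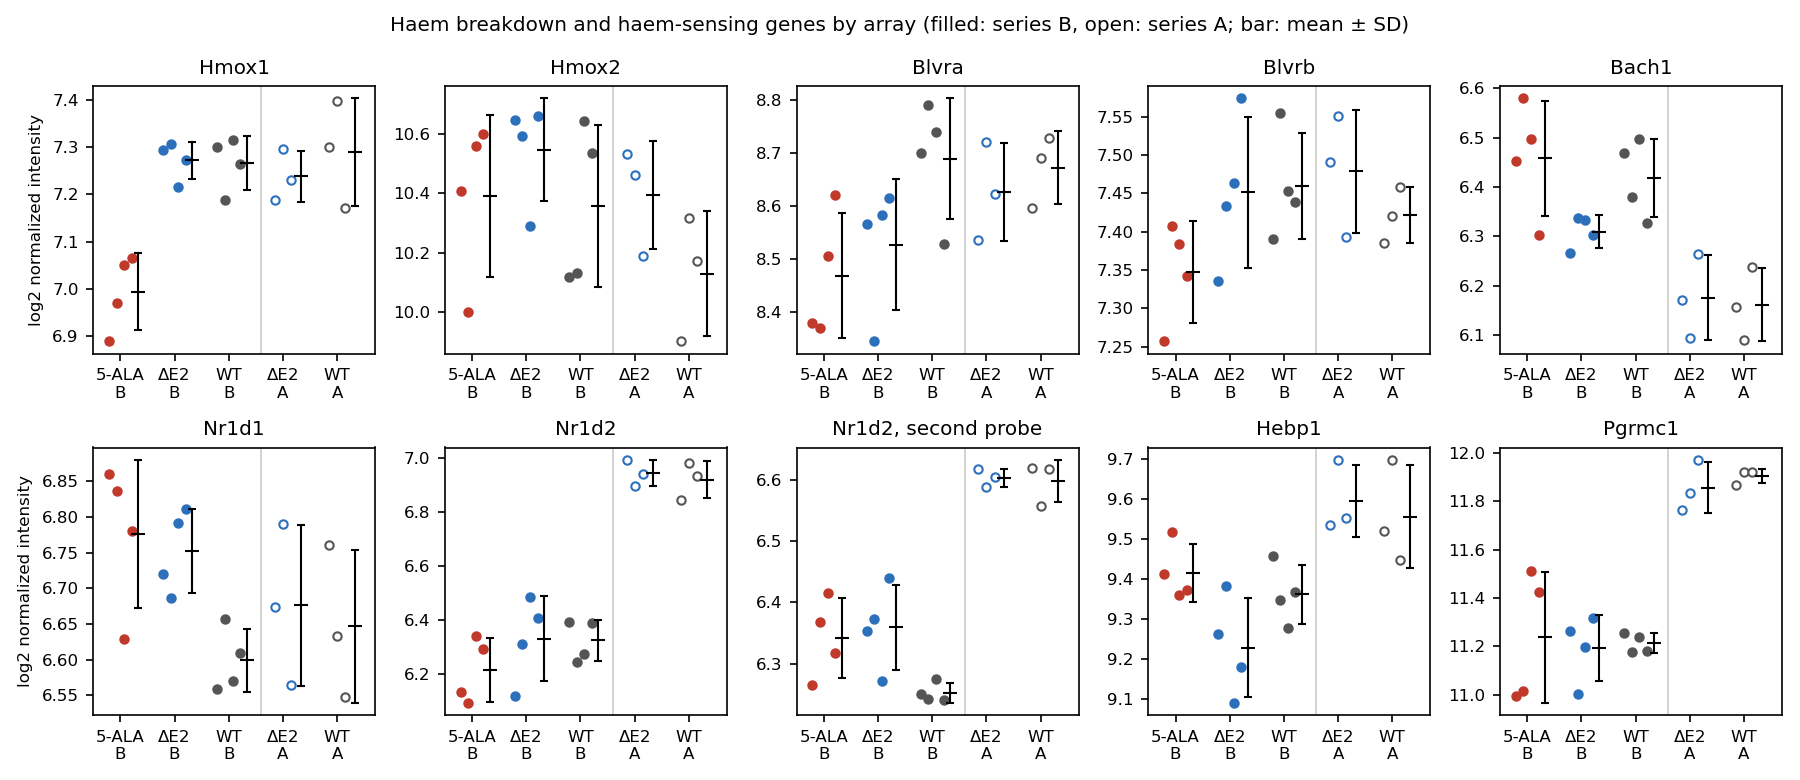
Log2 normalized intensity of the 10 probes on each array (points), with the mean and SD of each group (bars), from left to right 5-ALA, AtrxΔE2 and WT in series B (filled), then AtrxΔE2 and WT in series A (open). The 4 Hmox1 points of 5-ALA lie between 6.89 and 7.07, below all others, while Nr1d2 and Pgrmc1 separate the array series.

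Hmox2, the constitutive oxygenase gene, did not pass. It measured 10.41, 10.00, 10.56 and 10.60 on the 5-ALA arrays, against 10.64, 10.59, 10.29 and 10.66 on the AtrxΔE2 arrays of series B. Array 2 of the treated mice was the lowest and the groups overlapped. The difference was -0.16 (SE 0.153, 95% interval -0.48 to 0.17, limma adjusted p 0.62), so a change as large as that of Hmox1 lies inside the interval. Against WT it was 0.03 (interval -0.29 to 0.36).

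Neither biliverdin reductase gene passed, and the differences of both were below 0 in both 5-ALA comparisons. Blvra, the main adult reductase, measured 8.38, 8.37, 8.51 and 8.62 on the 5-ALA arrays, 8.57, 8.34, 8.58 and 8.62 on the AtrxΔE2 arrays, and 8.70, 8.79, 8.74 and 8.53 on the WT arrays of series B. Treated and untreated AtrxΔE2 mice overlapped throughout, and WT mice reached the highest values. The differences were -0.06 from AtrxΔE2 (SE 0.0731, limma adjusted p 0.714) and -0.22 from WT (interval -0.38 to -0.06, limma adjusted p 0.067). Leaving out WT array 7, AtrxΔE2 array 5 or 5-ALA array 4 brought the difference from WT under the threshold (limma adjusted p 0.0412, 0.0452 and 0.0273). In these fits the 2335 calls over all probes became 1326, 2180 and 3115. Blvrb, which encodes a flavin and biliverdin reductase abundant in red cells, ranged from 7.26 to 7.41 with 5-ALA, 7.34 to 7.57 in AtrxΔE2 and 7.39 to 7.56 in WT. It stood at -0.10 (SE 0.0509, limma adjusted p 0.248) against AtrxΔE2 and at -0.11 (limma adjusted p 0.173) against WT.

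Bach1, the haem-sensing repressor gene, went the other way but was not called. It measured 6.45, 6.58, 6.50 and 6.30 on the 5-ALA arrays, against 6.27, 6.34, 6.33 and 6.30 on the AtrxΔE2 arrays and 6.47, 6.38, 6.50 and 6.33 on the WT arrays of series B. Treated arrays 1 to 3 lay above every AtrxΔE2 array, and array 4 lay among them. The difference from AtrxΔE2 was 0.15 (SE 0.056, interval 0.03 to 0.27, limma adjusted p 0.125), which became 0.20 without 5-ALA array 4 and then passed (limma adjusted p 0.0257). In that fit the calls over all probes rose from 1522 to 2179. Against WT the Bach1 difference was 0.04 (interval -0.08 to 0.16), since AtrxΔE2 mice stood at -0.11 to WT (limma adjusted p 0.353). Transcript levels do not show how much BACH1 protein was bound to haem.

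The 2 clock receptor genes differed from each other. Nr1d1 measured 6.86, 6.84, 6.63 and 6.78 on the 5-ALA arrays, 6.72, 6.69, 6.79 and 6.81 on the AtrxΔE2 arrays, and 6.56, 6.66, 6.57 and 6.61 on the WT arrays of series B. Both mutant groups were above the WT group, apart from 5-ALA array 3, and did not separate from each other. The difference of treated mice was 0.02 from AtrxΔE2 (SE 0.0587, limma adjusted p 0.874) and 0.18 from WT (interval 0.05 to 0.30, limma adjusted p 0.0667). Without 5-ALA array 3 the difference from WT was 0.23 and passed (limma adjusted p 0.0177), in a fit where calls over all probes rose from 2335 to 3364. Nr1d2 stood at -0.11 against AtrxΔE2 with its representative probe (SE 0.0721, limma adjusted p 0.387) and at -0.02 with its second probe (SE 0.0347, limma adjusted p 0.838), and against WT at -0.11 and 0.09, so its probes disagreed in sign there and neither was called. In the deposited values the representative probe had a ratio of means of 0.743 to AtrxΔE2 and 0.713 to WT, near those of Hmox1. The second probe had 0.917 and 1.08. The representative probe is dim there, at 7.2 to 13.6 on 5-ALA arrays against 9.3 to 17.3 on AtrxΔE2 arrays, so these groups overlapped.

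Hebp1 measured 9.41, 9.52, 9.36 and 9.37 on the 5-ALA arrays, against 9.26, 9.38, 9.09 and 9.18 on the AtrxΔE2 arrays of series B. All but 1 of the AtrxΔE2 arrays lay below the treated group. The difference was 0.19 (SE 0.0668, interval 0.04 to 0.33, limma adjusted p 0.108), and against WT it was 0.05 (interval -0.09 to 0.20). Pgrmc1 split the treated mice, with 10.99 and 11.02 on arrays 1 and 2 and 11.51 and 11.43 on arrays 3 and 4, against 11.19 ± 0.137 in AtrxΔE2 mice of series B (SD, n = 4). Its difference of 0.04 from AtrxΔE2 (interval -0.18 to 0.26) and of 0.02 from WT (interval -0.19 to 0.24) was smaller than the SD of the treated mice (0.271). Against WT 10.4% of all tested probes were called, 4.87% lower, and at 7.67% every treated array lay below every WT array; Hmox1 was again the 1 gene of 9 called, and 4 of the 9 had an unadjusted p under 0.05, against 27.1% of all tested probes.

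**Figure D2:**
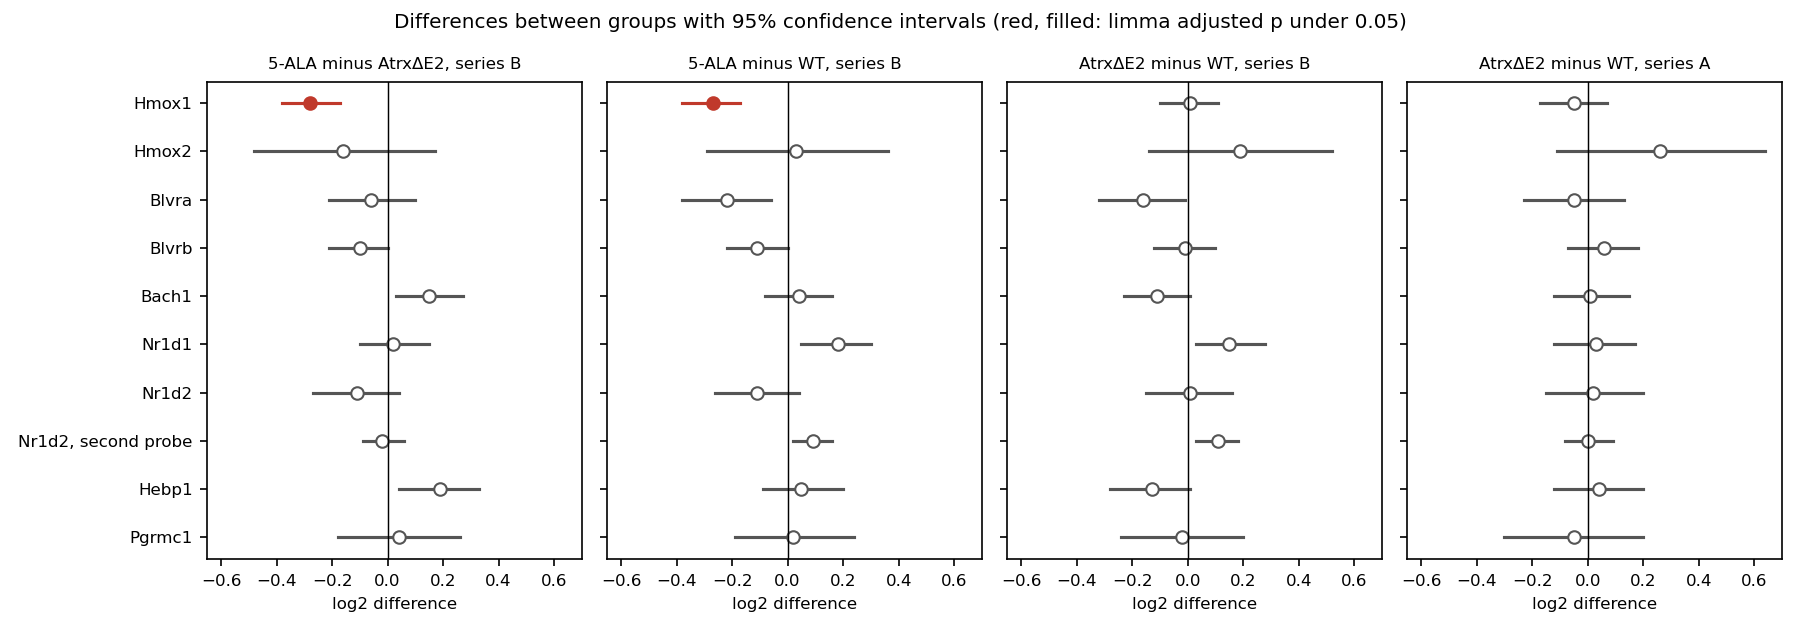
Log2 differences of the 10 probes (points) with 95% confidence intervals (lines) for 5-ALA minus AtrxΔE2, 5-ALA minus WT and AtrxΔE2 minus WT in series B, and AtrxΔE2 minus WT in series A. Red points passed at a limma adjusted p under 0.05: Hmox1 at -0.28 and -0.27, and no other.

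The comparison of AtrxΔE2 with WT mice asked whether the mutation alone moves these genes. Hmox1 did not separate the genotypes: the difference was 0.01 in series B (SE 0.049, 95% interval -0.10 to 0.11), and -0.05 in series A (SE 0.0566, interval -0.17 to 0.07), where it measured 7.19, 7.30 and 7.23 in AtrxΔE2 against 7.30, 7.40 and 7.17 in WT. None of the 9 genes was called by limma in series B, where 2.41% of all probes were, or in series A, where 0.00887% were. At an unadjusted p under 0.05 stood 2 of the 9 genes in series B, against 16.6% of all probes, and 0 in series A, against 3.02%; genes are counted here by their representative probe. Nr1d1 was the 1 gene whose groups did not overlap in series B, at 0.15 (SE 0.0587, exact permutation p 0.0286, limma adjusted p 0.203); at 6.26% of all probes every AtrxΔE2 array lay above every WT array. The second Nr1d2 probe stood at 0.11 (limma adjusted p 0.129), and passed without AtrxΔE2 array 6 (0.14, limma adjusted p 0.042), where calls over all probes rose from 543 to 621. In series A Nr1d1 and the second Nr1d2 probe stood at 0.03 and 0, and there 3 against 3 arrays cannot give an exact p below 0.1. Blvra was at -0.16 in series B and -0.05 in series A, and Hmox2 at 0.19 and 0.26, with intervals of -0.14 to 0.52 and -0.11 to 0.64. The difference between series was not called for any of the 9 genes (0.102% of all probes were; the lowest limma adjusted p was 0.597, for the second Nr1d2 probe, and 0 genes had an unadjusted p under 0.05, against 8.94% of all probes).

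Pgrmc1 and Nr1d2 separated the array series far more than any group. Pgrmc1 ranged from 10.99 to 11.51 over the 12 arrays of series B, against 11.76 to 11.97 over the 6 of series A; in WT mice the gap was -0.69, a size that 3.14% of tested probes exceeded, and in AtrxΔE2 mice it was -0.66. Nr1d2 was lower in series B by both probes, at -0.60 and -0.35 in WT and -0.61 and -0.24 in AtrxΔE2. Bach1 stood at 0.26 and Hmox2 at 0.23 in WT of series B against series A, and at 0.13 and 0.15 in AtrxΔE2. Hebp1 stood at -0.19 in WT and -0.37 in AtrxΔE2. Hmox1, Blvra, Blvrb and Nr1d1 lay between -0.05 and 0.04 in WT, and between -0.10 and 0.08 in AtrxΔE2. By group, Hmox1 ran in the order 7.29 in WT of series A, 7.27 in AtrxΔE2 and 7.27 in WT of series B, 7.24 in AtrxΔE2 of series A and 6.99 with 5-ALA. Neighbours among the first 4 differ by less than the smallest SD of any of them (0.0399), and the last lies apart.

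Of the listed genes that BACH1 and NRF2 control, 4 were called lower after 5-ALA against AtrxΔE2, and 1 of these also against WT, as Hmox1 was. The list was chosen with earlier results of these data known, so its counts are a description. Of the 16 listed targets beside Hmox1, 14 were tested; against AtrxΔE2, 4 were called lower and 0 higher, beside 3.26% lower and 3.49% higher of all probes. Slc48a1, which encodes the transporter that brings haem out of endosomes and lysosomes, measured 9.90, 10.02, 10.12 and 10.06 with 5-ALA, against 10.48, 10.43, 10.32 and 10.33 in AtrxΔE2. Every treated array lay below every AtrxΔE2 array, as at 5.79% of all probes, and the difference was -0.36 (SE 0.0547, limma adjusted p 0.00217). Srxn1, which repairs oxidised peroxiredoxins, measured 8.11, 8.12, 8.45 and 8.28 against 8.55, 9.01, 8.69 and 8.67, a fall of -0.49 (SE 0.0952, limma adjusted p 0.00869). Ftl1, the ferritin light chain gene, fell by 0.37 (limma adjusted p 0.0196), and Nqo1, a quinone reductase gene, fell by 0.24 (limma adjusted p 0.0224). The other 10 included Txnrd1 at 0.22, Me1 at 0.15, Gclm at 0.03 and Gclc at 0.14, and the list's median was 0.01.

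Against WT, where 10.4% of all probes were called, the list held 1 call, Slc48a1 at -0.29 (SE 0.0547, limma adjusted p 0.00603). That call ended without 5-ALA arrays 1 and 2 (-0.23, limma adjusted p 0.0775). Srxn1 stood at -0.19, Ftl1 at -0.19 and Nqo1 at -0.11 there, while in AtrxΔE2 against WT they were at 0.30, 0.17 and 0.13, none called. Against AtrxΔE2 the calls of Srxn1, Ftl1 and Nqo1 ended without 5-ALA arrays 1 and 2 (limma adjusted p 0.11, 0.203 and 0.187), and that of Slc48a1 did not. These 3 calls ended also with consecutive arrays as a random block (limma adjusted p 0.0546, 0.0772 and 0.0894), and those of Srxn1 and Ftl1 with only the groups compared (0.0748 each). Leaving out a single array ended the call of Nqo1 in 5 of 18 fits (without AtrxΔE2 array 4, 6 or 7 or 5-ALA array 1 or 2) and that of Ftl1 in 3 (without AtrxΔE2 array 4 or 5-ALA array 1 or 2). Of the 10 partners and regulators of BACH1, 0 were called against AtrxΔE2 by limma, beside 6.75% of all probes. At an unadjusted p under 0.05 stood 2, beside 22.3% of all probes. They were Fbxl17, a ligase subunit gene, at 0.34 and Keap1, the NRF2 inhibitor gene, at 0.27. Against WT, Fbxl17 (0.43, limma adjusted p 0.0365) and Bach2, the BACH1 paralogue gene (0.18, limma adjusted p 0.0174), were called higher. Both calls ended without 5-ALA arrays 1 and 2, with only the groups compared and with the random block. Bach2 stood at 0.03 against AtrxΔE2 (limma adjusted p 0.753), with means of 6.76 and 6.73, against 6.57 in WT.

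**Figure D3:**
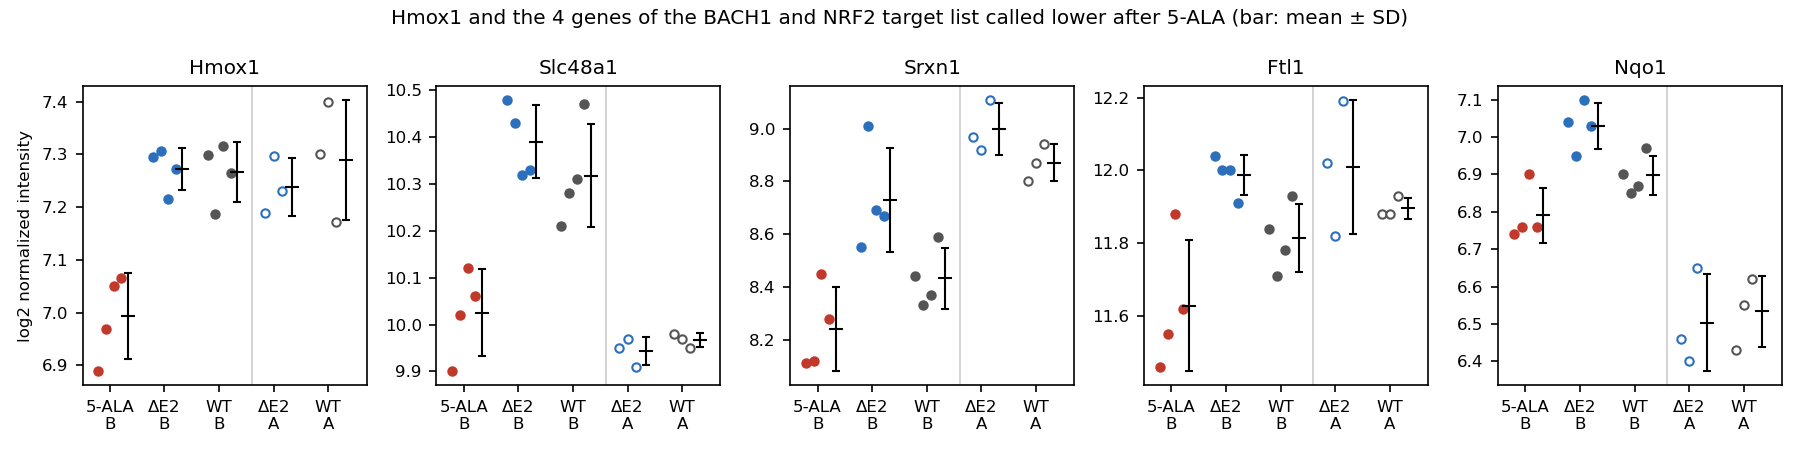
Log2 normalized intensity of Hmox1 and of the 4 BACH1 and NRF2 target genes called lower after 5-ALA, on each array (points, with group mean and SD), from left to right 5-ALA, AtrxΔE2 and WT in series B (filled), then AtrxΔE2 and WT in series A (open). In series B the treated Hmox1 and Slc48a1 points lie below both other groups, while Srxn1, Ftl1 and Nqo1 overlap WT.

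Among clock genes, Per1, a clock repressor gene that neuronal activity also induces, rose after 5-ALA, with 7.97, 7.95, 7.61 and 7.50 on treated arrays against 7.26, 7.24, 7.36 and 7.30 on AtrxΔE2 arrays. All 4 were above all 4, as at 5.63% of all probes. The difference was 0.47 (SE 0.118, limma adjusted p 0.0302), which without arrays 1 and 2 became 0.27 (limma adjusted p 0.297). Leaving out AtrxΔE2 array 4, 5 or 7 or 5-ALA array 1 or 2 alone also ended that call (limma adjusted p up to 0.0981), as did the random block of consecutive arrays (0.081), only the groups compared (0.0748), median scaling (0.0563) and array weights (0.0512). Per1 was the 1 call among 14 tested clock genes against AtrxΔE2, beside 6.75% of all probes. Against WT, where 10.4% of all probes were called, Per1 was called too (0.56, SE 0.118, limma adjusted p 0.0103). This second call was lost in 0 of 18 fits without 1 array and in 4 of 17 other settings. Among these was the fit without 5-ALA arrays 1 and 2 (0.36, limma adjusted p 0.147). None of the 10 tested REV-ERB targets and corepressors was called against AtrxΔE2 by limma. At an unadjusted p under 0.05 stood 2, beside 22.3% of all probes: Cry1 at 0.20 (limma adjusted p 0.0538), and the corepressor gene Ncor1 at 0.20 (limma adjusted p 0.202). Arntl, the best known REV-ERB target, stood at -0.06 (limma adjusted p 0.742). Rora, which activates at the element where REV-ERB represses, was at -0.05 against AtrxΔE2 and at -0.87 against WT (SE 0.1, limma adjusted p 0.0005); untreated AtrxΔE2 mice of series B stood at -0.83 (limma adjusted p 0.000635).

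Around Pgrmc1, 2 of 12 tested genes were called against AtrxΔE2, beside 6.75% of all probes. Fech, the ferrochelatase gene, measured 8.06, 8.13, 8.23 and 8.30 with 5-ALA, against 8.47, 8.53, 8.36 and 8.42 in AtrxΔE2, and fell by 0.26 (SE 0.0527, limma adjusted p 0.0103). Insig1, which restrains sterol synthesis, measured 7.03, 6.97, 7.24 and 7.32, against 7.28, 7.74, 7.75 and 7.72, and fell by 0.48 (SE 0.105, limma adjusted p 0.0163). Both calls ended without 5-ALA arrays 1 and 2 (limma adjusted p 0.114 and 0.177) and with only the groups compared (0.0713 and 0.0994), that of Fech on the authors' table (0.0831), and that of Insig1 with the random block (0.0681) and the blank spot level as a covariate (0.0602). Against WT, where 10.4% of all probes were called, Fech (-0.20, limma adjusted p 0.028) and Insig1 (-0.49, limma adjusted p 0.0107) were also lower. Scap, the sterol sensor gene, was higher (0.47, limma adjusted p 0.0168). These 3 calls too ended without 5-ALA arrays 1 and 2. The Fech call was lost in 5 of 18 fits without 1 array and in 10 of 17 other settings. That of Insig1 was lost in 0 and 4 of these, and that of Scap in 2 and 4.

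Of genes that carry haem or its products, Slc48a1 was the 1 call among 8 tested scavenging and transport genes against AtrxΔE2, beside 6.75% of all probes. The plasma scavenger genes Hpx and Hp stood at -0.01 and 0. Against WT, where 10.4% of all probes were called, the haem exporter gene Abcg2 was also lower (-0.33, limma adjusted p 0.0456). That call was lost in 13 of 18 fits that left out 1 array. Against AtrxΔE2, Abcg2 stood at -0.01 (limma adjusted p 0.977), with means of 7.32 and 7.33, against 7.65 in WT. Bile pigment handling gave 0 calls of 9 against AtrxΔE2 by limma. Pgrmc2 (0.23), Cyb5r3 (-0.17) and Gsta3 (0.08) had an unadjusted p under 0.05 there, beside 22.3% of all probes. Against WT this list gave 1 call, the transporter gene Abcc1 (0.40, limma adjusted p 0.0344). The Abcc1 call was lost in 4 of 18 fits without 1 array and in 9 of 16 other settings, among them only the groups compared (limma adjusted p 0.121), the random block (0.0947) and the fit without 5-ALA arrays 1 and 2 (0.22, limma adjusted p 0.263).

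Markers of microglia and oligodendrocytes summed lower on the 5-ALA arrays than in either other group of series B, where Hmox1 was lower too, while those of astrocytes lay between the other two. The 14 tested microglia markers summed to between 1782 and 1858 of the authors' units on 5-ALA arrays, against 2116 to 2650 on AtrxΔE2 arrays and 2388 to 2800 on WT arrays of series B. Of them 5 were called lower and 0 higher against AtrxΔE2 (median -0.28), and 8 lower against WT, where 3.26% and 4.87% of all probes were called lower. The 9 tested oligodendrocyte markers summed to between 10210 and 12300 with 5-ALA, 14400 and 15280 in AtrxΔE2 and 14160 and 17020 in WT, with 2 called lower against AtrxΔE2. The 9 astrocyte markers summed to between 6963 and 7147 with 5-ALA, above the 6340 to 6717 of AtrxΔE2 and below the 7586 to 8341 of WT; against AtrxΔE2 none was called by limma (median 0.03), and against WT 3 were called lower. Choroid plexus markers had 3 of 8 called lower against AtrxΔE2, and 2 lower and 3 higher against WT. The 7 markers of macrophages outside the parenchyma, all detected in each group, summed to between 27.9 and 35.5 with 5-ALA, 26.6 and 44.7 in AtrxΔE2 and 41.3 and 49.8 in WT, and none was called by limma. No microglia, macrophage or oligodendrocyte marker was undetected throughout a group. The part of these cells in the Hmox1 result was not tested.

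Over the 12 arrays of series B, the genes whose values followed Hmox1 most closely were Prcp, a lysosomal peptidase gene (Pearson r 0.962), the myelin gene Mbp (0.96), Tmem254a (0.951), Ddah1, which degrades a nitric oxide synthase inhibitor (0.95), and Cuedc1 (0.949), among 15860 genes. Those running most against it were Ric1 (-0.982), Topbp1 (-0.975), Zmym3 (-0.967), Asic2 (-0.967) and Cyfip2 (-0.958). These arrays share a series and fall into 4 with low and 8 with higher Hmox1, so the coefficients describe that split. Within the 9 genes, r with Hmox1 was 0.518 for Blvrb, 0.493 for Nr1d2, 0.479 for Blvra, 0.314 for Hmox2, 0.14 for Pgrmc1, -0.445 for Hebp1, -0.458 for Bach1 and -0.607 for Nr1d1.

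**Figure D4:**
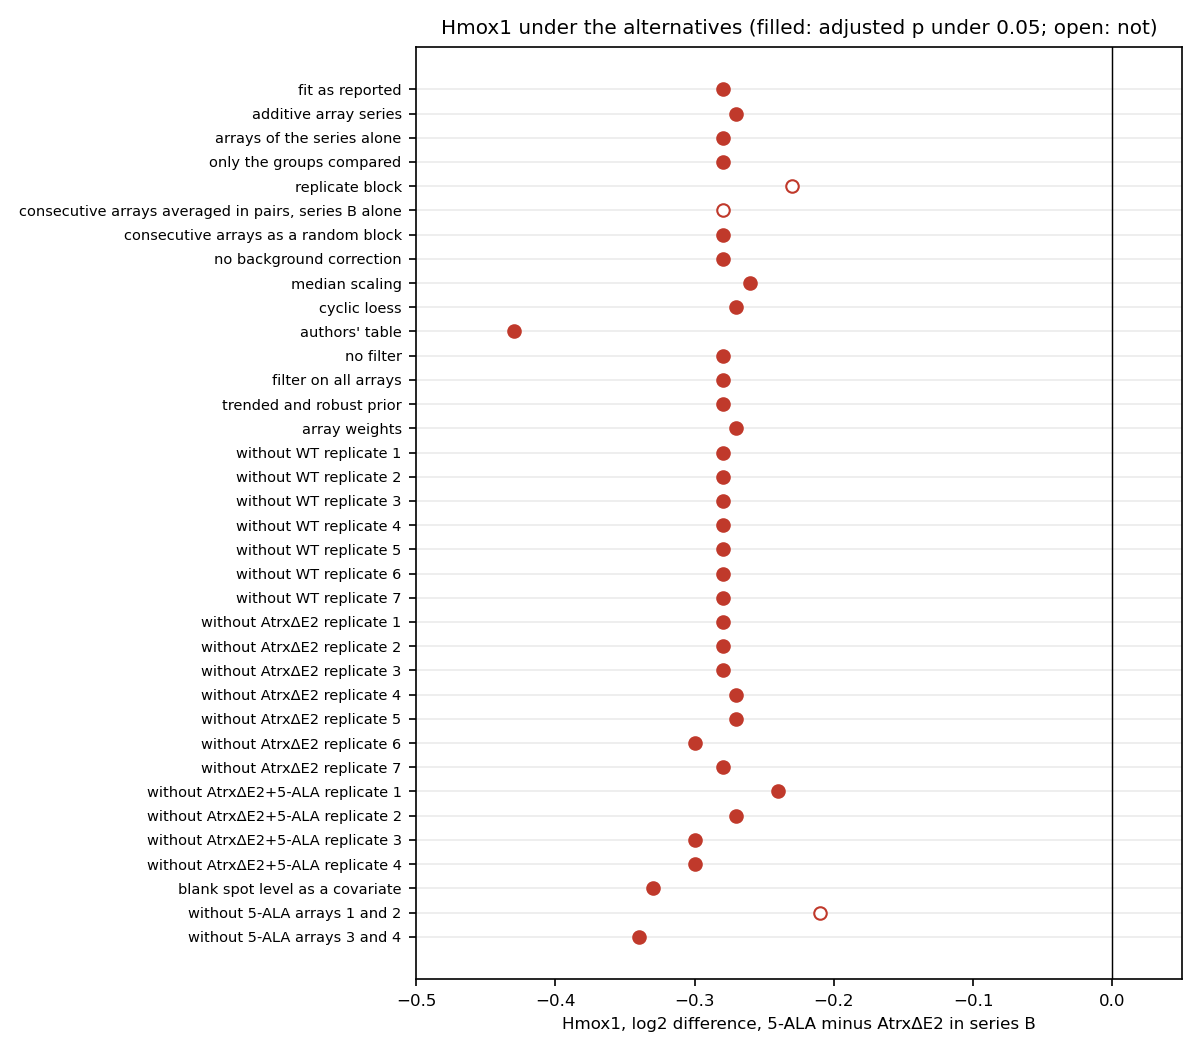
Log2 difference of Hmox1 between 5-ALA and AtrxΔE2 arrays of series B (x axis) under the reported fit and each alternative (rows); filled points have a limma adjusted p under 0.05. Every point is below 0, and the 3 open points are the replicate block (-0.23), averaged consecutive arrays (-0.28) and the fit without 5-ALA arrays 1 and 2 (-0.21).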

How the data were processed

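Total hippocampal RNA had been amplified, coupled to a Cy dye and hybridised to single-colour arrays, per the labels' protocols, whose extraction step speaks of cells although the tissue is given as hippocampus. Per the file headers, spots were deposited as the median 635 nm intensity, combined from 3 scanner gains. A second table deposited by the authors holds a normalized intensity with a median of 25 on each array; how it was made is not given in the sources used here. From the spot intensities, limma 3.58.1 in R 4.3.3 corrected background by normexp (offset 50), log2 values of duplicate spots were averaged and arrays quantile normalized. Spots marked as unusable were left out. The offset understates changes of dim genes. Tested probes had to pass the 95th percentile of blank spots on at least 4 arrays, which left out 935 of 23473 probes. The number of arrays limits the precision.

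One linear model gave each genotype and treatment in each series its own mean. Moderated two-sided tests were adjusted by Benjamini-Hochberg over all 22538 tested probes of a comparison, and a probe was called at an adjusted p under 0.05. The fit was tested on simulated data. Probe symbols came from the platform's annotation (16631 probes with 1 symbol, 0 with several, 6842 not listed) and were brought up to date with the RefSeq gene table of GRCm38.p6 (12622 current, 3947 replaced, 62 not found); a gene of several probes was represented by the brightest. The array's own genome build is not given in the sources used here.

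The 9 genes, the lists of related genes and the tests were chosen with earlier results of these data known. Named were the 9 genes, Atrx, called members of each list (at most 6 per list and comparison), and the 5 genes most and the 5 least correlated with Hmox1; uncalled list members are named as examples, chosen after their values were seen. Alternatives were an additive array series, each series or only the compared groups, the replicate number as a block, consecutive arrays averaged or as a random block, cyclic loess, median scaling, uncorrected background, the authors' table (log2 with a pseudocount of 1), other filters, priors, array weights and thresholds, exact permutation, and fits without single arrays. After seeing the data, further ones were added: the blank spot level as a covariate and fits without 5-ALA arrays 1 and 2, or 3 and 4.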

Additional observations from a re-analysis of the deposited data

Results flagged for a closer look

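The genotype effect on Rora, the clock activator gene that shares its DNA element with the REV-ERB receptors, differed between the array series by -1.03 (SE 0.154, interaction test, limma adjusted p 0.0226). In series B it measured 7.65, 7.72, 7.69 and 7.51 in AtrxΔE2 mice against 8.74, 8.44, 8.33 and 8.37 in WT mice, and in series A 8.24, 8.26 and 8.15 in AtrxΔE2 against 8.04, 7.98 and 8.04 in WT. The genotypes do not overlap in either series and stand in opposite order. Every AtrxΔE2 array lay below every WT array at 5.74% of all probes in series B, and above at 3.63% in series A. The call ended without WT array 2 or 5 or AtrxΔE2 array 1 or 2 (limma adjusted p up to 0.103), with the replicate block (-1.03, limma adjusted p 0.0788) and with the blank spot level as a covariate (-0.98, limma adjusted p 0.202). Among the 9 haem genes no array lay far from the others of its group of 4 by Dixon's test (0 of 30 groups).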

How the results depend on the processing

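The fall of Hmox1 against AtrxΔE2 kept its direction in all 17 refits and in all 18 fits without 1 array; it was called in each of the 18 (-0.30 to -0.24, limma adjusted p up to 0.0188) and in 14 of the 17 (-0.43 to -0.21, limma adjusted p 0.00116 to 0.442). Against WT it was called in 18 of 18 (up to 0.0171) and 13 of 17 (-0.50 to -0.21). The number of the 9 genes called was 1 in each 5-ALA comparison. Averaging consecutive arrays, or leaving out 5-ALA arrays 1 and 2, gave 0 in both (2 genes at an unadjusted limma p under 0.05 in each), and the blank spot level as a covariate gave 0 against WT (2 unadjusted). Without 5-ALA arrays 3 and 4 it was 2 against AtrxΔE2 (Hmox1 and Bach1) and 3 against WT (Hmox1, Blvra and Nr1d1), and an adjusted p under 0.1 gave the same 3 genes against WT. Leaving out each array in turn gave 1 to 2 in both 5-ALA comparisons and 0 to 0 in the genotype comparisons, where the unadjusted exact test gave 1 in series B (Nr1d1). The replicate block gave 0 in both 5-ALA comparisons (1 and 2 unadjusted), with Hmox1 at -0.23 against each (limma adjusted p 0.442 and 0.386). The labels do not say whether replicate numbers pair the mice. Deviations of same-numbered arrays correlated at -0.187 to 0.508 over 15 pairs, a range that does not settle it. The 5-ALA arrays 1 to 3 share their numbers with arrays of series A only. The replicate block ended the calls of the other named genes in the 5-ALA comparisons as well. It also ended the call of a difference between series for Rora (limma adjusted p 0.0788), and kept that of Rora in AtrxΔE2 against WT of series B.

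Counts over all probes moved more. The 1522 calls against AtrxΔE2 became 471 with only the groups compared, 9 with the replicate block, 0 with averaged pairs (2527 unadjusted), 371 with pairs as a random block, 886 on the authors' table, 896 with array weights, 636 with the blank level, 433 and 4163 without 5-ALA arrays 1 and 2 or 3 and 4, 333 and 2660 at adjusted p under 0.01 and 0.1, and 586 to 2179 without single arrays. The 2335 against WT (1238 higher) became 1159, 27, 0 (3021 unadjusted), 699, 3077 (515 higher), 1487, 1, 442 and 5291, 569 and 3971, and 984 to 3364 in the same order, 1527 with cyclic loess, and 1851 (1306 higher) with median scaling. In AtrxΔE2 against WT of series B the 543 calls (274 higher) became 20 in the additive model, 2565 (748 higher) with median scaling, 464 (70 higher) on the authors' table, 147 with the random block, 1104 with array weights, 1 with the blank level and 0 with averaged pairs (1960 unadjusted). All 10 probes exceeded the blank spots on every array, so no value is given as a bound.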
